A study of Mus musculus with 5 samples.

Results

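Paneth cells are secretory cells at the base of the crypts of the small intestine, and the 7 genes described here encode products that they are known to release: Lyz1, Defa24, Ang4, Mmp7, Itln1, Guca2a and Ccl9. The genes were taken by name from a total of 18323 genes with a count in the cells kept. They were measured in single cells of mouse organoids, epithelial cultures that grow from intestinal cells in a gel. There were 5 libraries, 1 plate of 384 wells each: fetal intestine organoids of WT genotype (fetal), and small intestine organoids of genotype WT (WT), Lkb1 +/- (het) and Lkb1 -/-. The last genotype had a pair of libraries, called Bud and Cys after a mark in the title that no label explains. The edited stretch of the Lkb1 gene (Stk11) is not stated in the labels, and a 3' tag does not check it. All were grown under the same protocol with Egf, R-spondin and Noggin. Lkb1 is a kinase that activates AMPK and its relatives. The labels give no allele, sex, age or number of animals or clones behind a library.

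In the crypt, Paneth cells sit between stem cells, which they supply with Wnt and Notch ligands, and they arise from secretory precursors that depend on the transcription factor Atoh1. Their granules carry lysozyme, alpha-defensins and other antimicrobial proteins, and in the mouse the protease Mmp7 cuts pro-alpha-defensins into their active form. Goblet cells come from the same precursors, and their main mucin is encoded by Muc2. Several of the 7 products are not exclusive to Paneth cells: Guca2a and Ccl9 also stood on the goblet cell list used here, and Ccl9 on the list for M cells, the cells that cover lymphoid follicles.

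After wells under 1000 unique molecular identifiers (UMIs, counts of distinct molecules) were left out, there remained 302 cells for WT, 318 for Bud, 351 for het, 359 for Cys and 371 for fetal. Library totals lay between 4035219 UMIs (WT) and 5865507 (fetal). Levels are UMIs per 1000000 UMIs of a library (CPM), and since the method reads 1 tag per transcript they need no scaling by gene length. No group had a second library, so no test between conditions was possible, and the 95% intervals cover counting error only. Fewer cells of a type and less RNA per cell cannot be told apart in the summed values. Wells carry the same numbers in every library. The same-numbered wells of the other libraries held no UMI of Itln1, Ang4, Defa24 or Lyz1 opposite the richest het cell of each. Opposite the richest WT cell of Lyz1, Bud and Cys each held 1 Lyz1 UMI. Of 11 Lyz1-positive Cys wells, 2 shared their number with a well of 10 or more UMIs in another library. So did 29 of all 359 kept Cys wells. Kcnq1ot1, a sign of damaged cells, took over 2% of UMIs in 0.539% (fetal) to 17.1% (het) of the cells of a library.

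RefSeq promoters (build GRCm38.p6) were matched for 6 of the 7 genes, and 3 are shown because Mmp7 was the product high in fetal cells, where Lyz1 had 1 UMI and Ang4 none. Each run is the 250 bases before the start site, 5' to 3' on the gene's strand, and capitals mark a match to any of 3 motifs: CTTTGA (TCF/LEF, the nuclear end of Wnt signalling), CAGNTG (an E-box) or TGANTCA (AP-1), on either strand. The Lyz1 window lies at chr10:117292869-117293118 on the reverse strand and holds no match.
Lyz1: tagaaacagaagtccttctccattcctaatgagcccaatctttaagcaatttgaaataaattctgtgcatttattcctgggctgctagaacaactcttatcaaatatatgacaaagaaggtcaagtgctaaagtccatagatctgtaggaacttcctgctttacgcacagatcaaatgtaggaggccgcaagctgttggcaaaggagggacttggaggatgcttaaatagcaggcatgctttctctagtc
The Mmp7 window lies at chr9:7691840-7692089 on the forward strand and holds 1 AP-1 match, 63 bases before the start.
Mmp7: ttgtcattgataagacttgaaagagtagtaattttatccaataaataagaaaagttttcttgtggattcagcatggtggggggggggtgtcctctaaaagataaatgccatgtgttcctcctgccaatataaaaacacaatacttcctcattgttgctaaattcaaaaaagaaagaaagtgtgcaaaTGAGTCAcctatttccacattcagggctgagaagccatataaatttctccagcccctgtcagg
The Ang4 window lies at chr14:51773591-51773840 on the reverse strand and holds 1 AP-1 match, 122 bases before the start, and 2 E-box matches.
Ang4: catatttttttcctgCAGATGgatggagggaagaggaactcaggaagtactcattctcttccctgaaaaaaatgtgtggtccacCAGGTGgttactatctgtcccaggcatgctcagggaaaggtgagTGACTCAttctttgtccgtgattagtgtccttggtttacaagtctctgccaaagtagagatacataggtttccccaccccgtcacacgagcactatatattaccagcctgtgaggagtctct
The AP-1 letters were found in 4 of the 6 promoters (Ang4, Mmp7, Guca2a and Ccl9) and in 6.75% of all 32851 promoters of this length. The E-box letters were found in 3 of the 6 and in 44.8% of all, and the TCF/LEF letters in 0 of the 6 and in 13.8% of all. In Guca2a an E-box match at 206 bases before the start ended where the AP-1 match at 200 began, and no printed match overlapped another. These are letter matches, with no measurement of binding here.

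Lyz1 encodes the lysozyme of Paneth cells, an enzyme that cuts bacterial cell walls (chr10:117287797-117292868). It stood at 0.170 CPM in fetal (1 UMI), 106 in WT, 100.3 in het, 156 in Bud and 2.61 in Cys (13 UMIs). WT, het and Bud lay between 100.3 and 156, and both other libraries far below. Lyz1 was detected, by at least 1 UMI, in 23.3% of Bud cells (18.7 to 28.3), and in 18.2% (14.3 to 22.7) for het and 17.9% (13.7 to 22.7) for WT. Cys had 3.06% (1.54 to 5.42) and fetal 0.270%. With every cell thinned to 1000 UMIs the shares were 10.4% (Bud), 5.98% (het), 5.96% (WT), 0.557% (Cys) and 0% (fetal). Most positive cells held little: 9 WT, 7 het, 14 Bud, 0 Cys and 0 fetal cells had 10 or more UMIs. The richest cell held 71 UMIs in WT, 155 in het and 134 in Bud, against 2 in Cys. The Lyz1-positive cells of Bud were shallow, with a median of 6630 UMIs against 12578 in its other cells, whereas in WT the medians were 12487.5 and 12231. Averaging over cells with equal weight gave higher levels: 138 CPM in WT, 215 in het and 391 in Bud.

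Lyz1-positive cells were also seen where enterocyte genes were plentiful. Enterocytes are the absorptive cells and are not known to make lysozyme. Of cells with at least 20 UMIs of enterocyte list genes, 17.6% in WT, 16.0% in het and 14.2% in Bud held a Lyz1 UMI. Those cells were deeper, with median totals of 21346, 19112 and 21014.5 UMIs, against 6866, 4887.5 and 6630 in the other cells. The other cells were positive in 18.1%, 20.3% and 27.8%. The groups differ in depth and were not compared at matched depth, so the share of cells with at least 1 UMI is not read as a share of lysozyme-making cells. In Bud the share in enterocyte-rich cells was lower, and the largest count in them was 6 UMIs, against 30 in WT and 41 in het.

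Defa24 encodes an alpha-defensin, a small pore-forming antimicrobial peptide (chr8:21734494-21735471). It had 53 UMIs in 12 het cells (12.1 CPM) and 24 UMIs in 4 Bud cells (5.72 CPM). No kept WT cell held a UMI, so that, at 3 counts, cells holding one could make up as much as 0.993%, and the fetal and Cys tables did not list the gene. In Bud 87.5% of the UMIs came from 1 cell with 21, and in het the richest cell had 17. Almost every Defa24 UMI was read once: there were 1.11 reads per UMI in het and 1.125 in Bud, against 3.21 and 3.29 over all genes. In the richest het cell the gene had 1.12 reads per UMI and the whole cell 2.91. Other defensins were scarcer still, with 6 UMIs of Defa26 in het and 4 in Bud, 1 of Defa17 in het and 1 of Defa3 in Bud. Defensin genes are near-identical copies, so counts assigned to a single member are uncertain.

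Ang4 encodes a secreted ribonuclease with antimicrobial activity (chr14:51763878-51773590). Its level was 9.42 CPM in WT (38 UMIs in 7 cells), 33.0 in het (145 in 13 cells) and 49.3 in Bud (207 in 23 cells), and it was not listed for fetal or Cys. The single richest cell carried 52.6% of the UMIs in WT (20 UMIs), 43.4% in het (63) and 48.3% in Bud (100). The richest cells of het and Bud were poor in lysozyme, with 0 and 2 Lyz1 UMIs, and the next het cell had 23 Ang4 UMIs and 0 of Lyz1. The next Bud cell, by contrast, had 40 Ang4 and 15 Lyz1 UMIs. In WT the richest cell, with 20 Ang4 UMIs, held 37 of Lyz1, and all 5 WT cells with 2 or more Ang4 UMIs had 2 or more of Lyz1, as did 3 of 9 in het and 5 of 13 in Bud. UMIs of enteroendocrine list genes (hormone-producing cells) in the 3 cells richest in Ang4 were uneven. They numbered 10, 1547 and 0 in het, 30, 85 and 4 in Bud, and 0 in each of the 3 WT cells. Without the richest cell of each library Ang4 stood at 4.48 CPM in WT, 18.7 in het and 25.5 in Bud.

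Mmp7, the matrilysin that activates mouse defensins (chr9:7692090-7699585), was the 1 product with its highest level in fetal. It stood at 660.1 CPM in fetal, 21.8 in WT, 72.6 in het, 39.3 in Bud and 27.5 in Cys. In the fetal library 80.1% of cells held a UMI (75.6 to 84.0), against 8.61% in WT (5.70 to 12.4), 15.1% in het, 17.0% in Bud and 11.4% in Cys. The fetal interval lay above all the others. Thinned to 1000 UMIs per cell, the share was 41.0% in fetal and 2.23% (Cys) to 6.27% (het) elsewhere. The fetal signal was spread widely, with 146 cells of 10 or more UMIs and only 2.27% of all UMIs in the richest cell, which held 88. No fetal cell had 2 UMIs of 3 or more of the products, and Defa24, the kind of gene whose product Mmp7 cuts, was not listed there. Of 26 Mmp7-positive WT wells, 11 shared their number with a well of 10 or more UMIs in another library, as did 119 of all 302 kept WT wells.

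**Figure D1:**
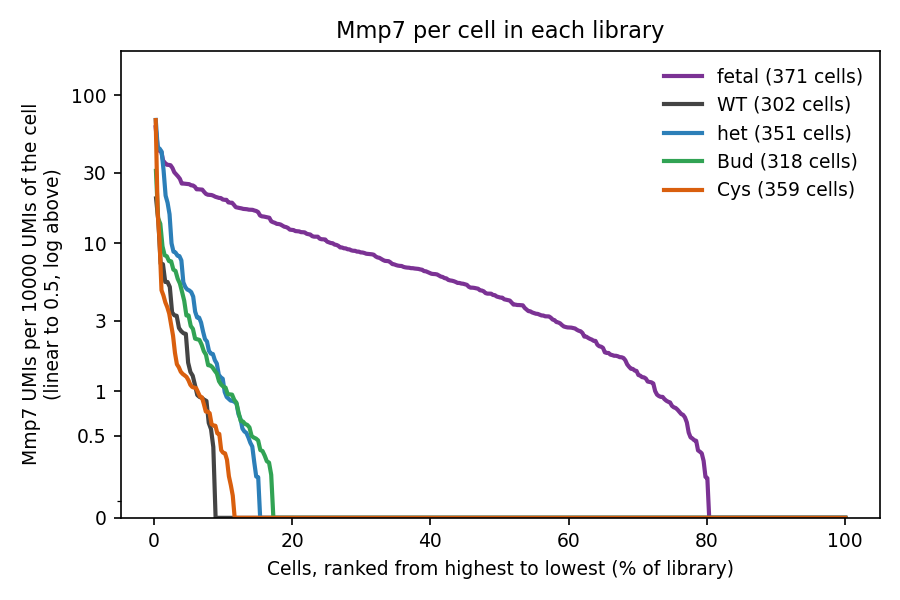
Mmp7 UMIs per 10000 UMIs of a cell (vertical axis, linear to 0.5 and logarithmic above) against the rank of the cell as a percentage of its library (horizontal axis), 1 line per library. The fetal line stays above 0 for 80.1% of cells, while the other lines reach 0 before 20% of cells.

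Itln1 encodes intelectin, a lectin that binds sugars on microbial surfaces (chr1:171518122-171535294). It had 0.170 CPM in fetal (1 UMI), 19.6 in WT, 217 in het, 49.8 in Bud and 0.201 in Cys (1 UMI). The het level rested largely on 1 cell: its well 101 held 572 of 952 UMIs, or 60.1%. Those 572 UMIs were 8.86% of everything counted in that cell. Without the richest cell of each library het stood at 86.6 CPM, Bud at 30.3 and WT at 15.4. Cells with a UMI were also more numerous in het, 24.8% (20.4 to 29.6) against 9.60% in WT (6.53 to 13.5) and 10.1% in Bud (6.99 to 13.9). Thinned to 1000 UMIs these shares were 6.55%, 0.662% and 2.20%. In enterocyte-rich cells the shares with an Itln1 UMI were 23.1% in het, 11.5% in WT and 15.1% in Bud. The other cells had 26.4%, 8.19% and 7.55%, at lower depth, so this share too is not read as a share of intelectin-making cells.

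Guca2a encodes guanylin, a peptide that acts on the receptor guanylate cyclase C (gene Gucy2c) to drive fluid and ion secretion (chr4:119637704-119639471). It stood at 14.6 CPM in WT, 32.3 in het, 13.6 in Bud and 0.602 in Cys (3 UMIs), and was not listed for fetal. The WT and Bud intervals overlapped, and het was above both. It was detected in 4.64% of WT cells (2.56 to 7.66), 6.84% for het (4.43 to 10.003), 6.92% for Bud (4.39 to 10.3) and 0.557% for Cys, and the first 3 intervals overlapped. The richest het cell, with 43 UMIs, was also the richest in Muc2 (318 UMIs).

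Ccl9 encodes a CC chemokine (chr11:83572919-83578636), and its level varied least among the small intestine libraries. It stood at 2.73 CPM in fetal, 15.9 in WT, 18.0 in het, 21.4 in Bud and 16.7 in Cys, and the last 4 intervals overlapped. It was found in 11.1% of Cys cells (8.08 to 14.9) and 11.6% of Bud cells (8.33 to 15.7), intervals that overlap, with 7.28% in WT, 7.69% in het and 3.77% in fetal. Per-cell averages were less even: 36.3 CPM in WT, 34.3 in het, 64.8 in Bud and 22.5 in Cys.

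**Figure D2:**
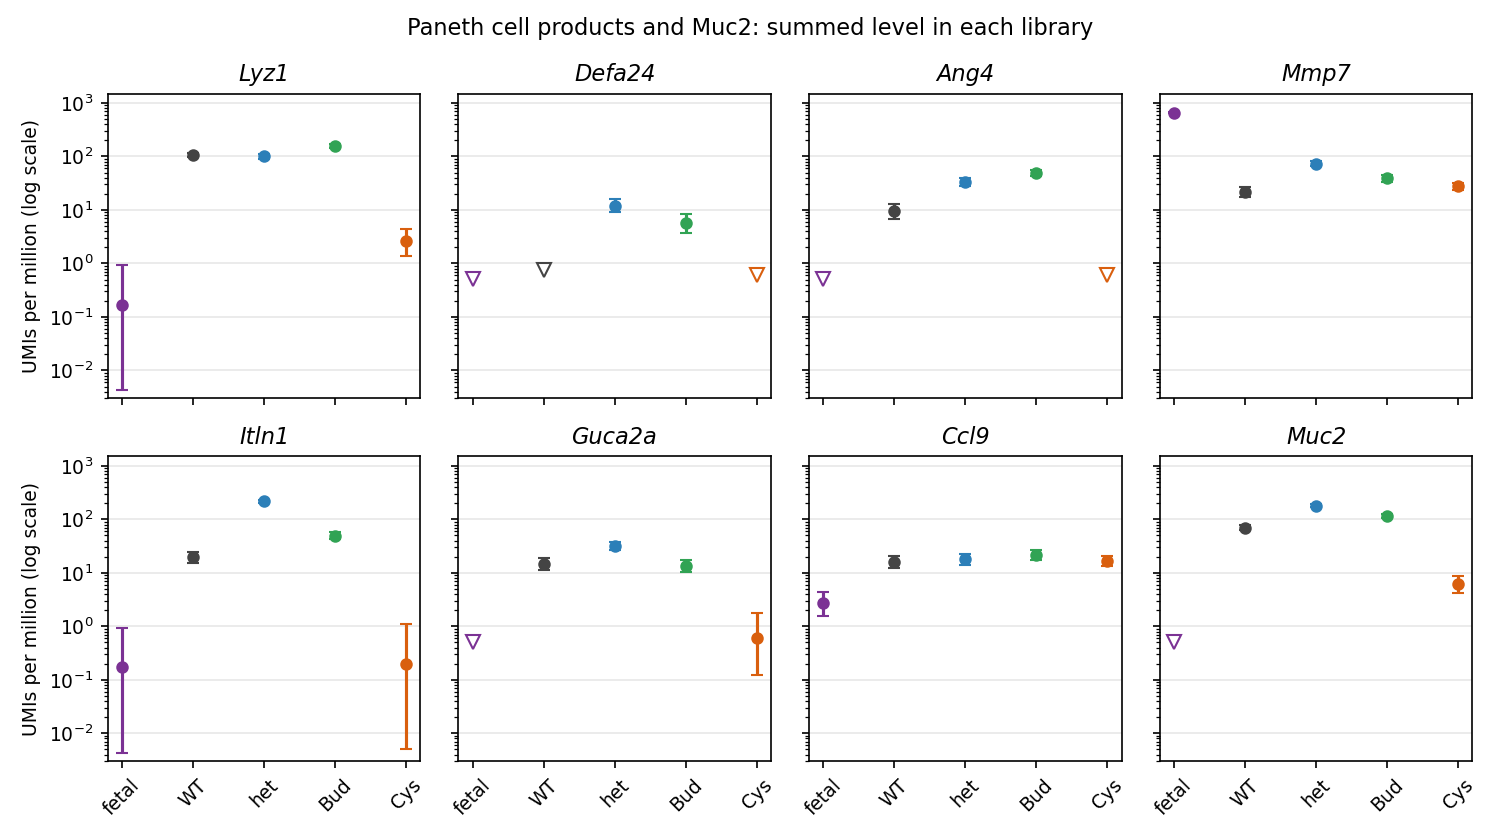
Summed level of each gene (CPM, log axis) in the 5 libraries. Points are CPM with exact Poisson 95% intervals, which cover counting error only, and open triangles mark the level of 3 UMIs where no kept cell held one; Lyz1 is at 156 CPM in Bud and 2.61 in Cys while Mmp7 reaches 660.1 in fetal.

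The products were next compared between libraries by ratios of CPM. A gene was measured with at least 10 UMIs over both libraries, and called when the ratio was at least 1.5 and its interval excluded 1. The comparisons with WT share the WT library, and those with Bud share Bud, so the values stand side by side and are not independent.

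In the library of genotype Lkb1 +/- most of the 7 products were higher than in WT, but lysozyme was not. Of 7 measured members 5 were called higher and 0 lower, where 8.43% of all 11652 genes were called higher and 8.83% lower. Defa24 was at least 16.2-fold higher, Ang4 3.50-fold (2.44 to 5.15), Mmp7 3.33-fold (2.62 to 4.26), Itln1 11.1-fold (8.79 to 14.1) and Guca2a 2.21-fold (1.62 to 3.05). Lyz1 differed by less than the threshold (1.06-fold lower, 0.926 to 1.21), as did Ccl9 (1.13-fold higher, 0.805 to 1.60). The median log2 ratio, with 10 CPM added, was 1.14 over the members and -0.02 over all genes. Without each gene's richest cell the same 5 were called, and Itln1 was 5.61-fold higher (4.28 to 7.46). Lyz1 was then 1.37-fold lower (1.17 to 1.60), under the fold needed. With equal weight per cell, a setting without a counting interval, Lyz1 instead passed the fold as higher in het (215 CPM against 138 in WT).

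In the Lkb1 -/- library marked Bud, Defa24, Ang4, Itln1 and Mmp7 were higher than in WT. Of 7 measured members 4 were called higher and 0 lower, where 5.79% of 11541 genes were called higher and 8.67% lower. Ang4 was 5.23-fold higher (3.69 to 7.61), Itln1 2.54-fold (1.95 to 3.34), Mmp7 1.80-fold (1.38 to 2.36) and Defa24 at least 7.69-fold. Lyz1 was 1.46-fold higher (1.29 to 1.66), just under the fold needed, and Guca2a and Ccl9 were not called. The median log2 ratio was 0.63 over the members and -0.04 over all genes. Without the richest cells Defa24, left with 3 UMIs, was no longer measured and Ccl9 was called higher (1.76-fold, 1.21 to 2.596). All 7 passed the fold with equal weight per cell, a setting that has no counting interval.

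The other Lkb1 -/- library, marked Cys, held few of these transcripts except those of Mmp7 and Ccl9. Against WT, 4 of 6 measured members were called lower and 0 higher, where 22% of 11782 genes were called lower and 17.6% higher. Lyz1 was 40.7-fold lower (23.6 to 77.1), Ang4 at least 15.6-fold, Guca2a 24.3-fold (7.91 to 121) and Itln1 97.5-fold (17.0 to 3900.0, from 1 UMI in Cys). Mmp7 was 1.26-fold higher (0.958 to 1.67) and Ccl9 1.05-fold higher (0.749 to 1.48), and neither was called. The median log2 ratio was -1.09 over the members and -0.06 over all genes. Leaving out both wells of over 100000 UMIs in Cys kept the same 4 calls.

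Set directly beside Bud, Cys was lower for 5 of 7 measured members and higher for 0, where 19.5% of 11766 genes were called lower and 19.2% higher. Lyz1 was 59.6-fold lower (34.6 to 113), Itln1 248-fold (44.0 to 9839, from 1 UMI in Cys), Ang4 at least 81.9-fold, Guca2a 22.5-fold (7.33 to 113) and Defa24 at least 9.49-fold. Mmp7 was 1.43-fold lower (1.13 to 1.81), under the fold needed, and was called without the richest cells (1.72-fold, 1.33 to 2.25). The median log2 ratio was -1.15 over the members and -0.03 over all genes.

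Bud against het went both ways. Lyz1 was called higher, 1.55-fold (1.37 to 1.75), and 4 members lower: Itln1 4.35-fold (3.74 to 5.08), Guca2a 2.38-fold (1.74 to 3.296), Defa24 2.11-fold (1.28 to 3.57) and Mmp7 1.85-fold (1.53 to 2.24). Of all 11708 genes 8.94% were called higher and 11.7% lower. The median log2 ratio was -0.49 over the members and -0.01 over all genes. The log2 ratio of Lyz1 was 0.59, and 0.50 among wells of at least 3000 UMIs and 0.51 without the Kcnq1ot1-rich wells, where the call was lost, as it was at a fold of 2. Without the richest cells Itln1 was 2.86-fold lower (2.33 to 3.52) and Defa24 11.5-fold lower (3.63 to 58.2). With equal weight per cell Guca2a stood at 41.2 CPM in het and 36.4 in Bud, under the fold needed. Ang4 (88.0 CPM in het, 134 in Bud) and Ccl9 (34.3 and 64.8) then passed the fold as higher in Bud.

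Fetal organoids differed from WT in all 6 measured products, and Defa24 was not measured. Mmp7 was 30.3-fold higher (24.5 to 37.8), the 1 member called higher, and 5 of 6 measured members were called lower, where 29.4% of 12534 genes were called higher and 22.3% lower. Lyz1 was 624-fold lower (111 to 24687) and Itln1 115-fold (20.02 to 4592), each from 1 fetal UMI. Ang4 was at least 18.4-fold, Guca2a at least 28.6-fold and Ccl9 5.81-fold (3.32 to 10.8) lower. The median log2 ratio was -1.16 over the members and 0.06 over all genes.

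Whether the products met in the same cell was asked with cells holding at least 2 UMIs of at least 3 of the 7. Het had 15 such cells (4.27%, 2.41 to 6.95), Bud 12 (3.77%, 1.96 to 6.499), WT 9 (2.98%, 1.37 to 5.58), Cys 1 and fetal 0 (up to 0.989%). The WT, het and Bud intervals overlapped. These few cells held 60.4% of the members' UMIs in WT, 71.5% in het and 47.4% in Bud. They were picked by their counts of the same members, so high shares follow in part from the choice. The cells themselves were uneven. In WT the members made up a median of 0.442% of such a cell's UMIs, in het 0.941% and in Bud 0.528%. Only het wells 101 and 77 and Bud well 45 exceeded 4%, with 10.0%, 4.33% and 5.61%.

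Het well 77 held 155 Lyz1, 156 Itln1, 37 Mmp7, 17 Defa24, 17 Ccl9 and 12 Muc2 UMIs. Bud well 45 held 134 Lyz1, 82 Itln1, 21 Defa24, 14 Mmp7 and 28 Muc2 UMIs. Lyz1, Itln1 and Defa24 were each abundant in both of these cells, while het well 101 was rich in Itln1 but held 10 Lyz1 UMIs. No cell of WT resembled them in Defa24. Lyz1, at 2 or more UMIs, was in all 9 WT cells and all 12 Bud cells with several products, and in 12 of the 15 het cells. Of the 9 het cells with 2 or more Defa24 UMIs, 8 also had 2 or more of Itln1, and 6 of Lyz1. The 1 Cys cell, well 331, had 13 Mmp7, 11 Ccl9 and 2 Guca2a UMIs but none of Lyz1, Itln1 or Ang4.

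**Figure D3:**
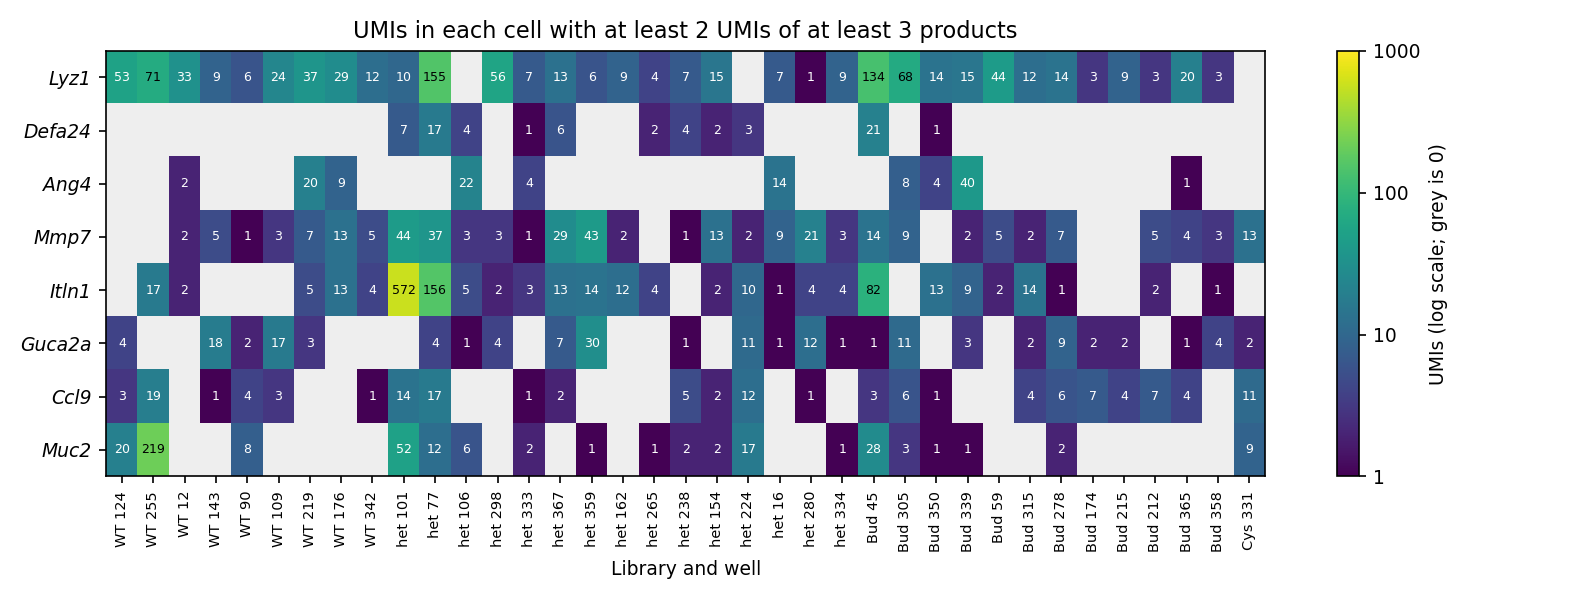
UMIs of each product and of Muc2 (rows) in every cell with at least 2 UMIs of at least 3 products (columns, by library and well, ordered within a library by the members' share of the cell). Colour and digits give UMIs on a log scale, and grey is 0; Defa24 is grey in all 9 WT cells.

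How far a transcript was concentrated in single cells differed by gene. Muc2 had 77.4%, 40.3% and 81.7% of its UMIs in the richest cell of WT, het and Bud. Among the products measured in all 3 libraries, Ang4 had 43.4% to 52.6% there, Itln1 21.5% to 60.1% and Lyz1 16.6% to 35.1%. Mmp7 was spread more evenly, with 12.1% to 15.9% in the richest cell. Ccl9 ranged from 7.78% in Bud to 29.7% in WT.

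**Figure D4:**
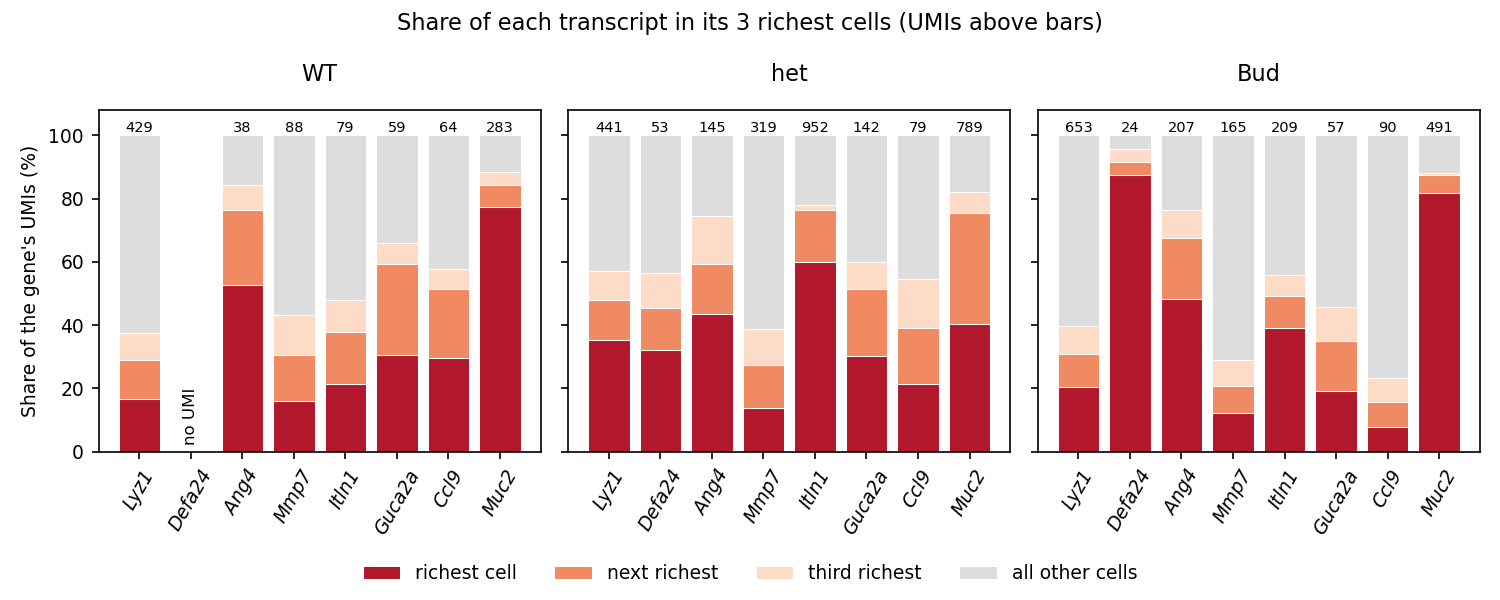
Share of each gene's UMIs (vertical axis, %) held by its 3 richest cells and by all other cells in WT, het and Bud, with the gene's total UMIs above each bar. The richest-cell share of Itln1 reaches 60.1% in het, and that of Mmp7 stays at or under 15.9%.

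Muc2 itself stood at 70.1 CPM in WT, 179.5 in het, 117 in Bud and 6.22 in Cys, and was not listed for fetal. The single cell richest in it was also the richest in Lyz1 in WT, but not in het or Bud. Well 255 of WT held 219 Muc2 and 71 Lyz1 UMIs, each the largest count of its gene in the library. In het, well 18 held 318 Muc2 and 0 Lyz1 UMIs and well 311 held 278 and 6, while in Bud well 275 held 401 and 13. Cells next in Muc2 were rich in the products: het well 101, the third in Muc2 with 52 UMIs, was the richest in Itln1 and Mmp7, and Bud well 45, the second with 28, was the richest in Lyz1, Defa24 and Itln1.

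A Lyz1 UMI was found in 32.1% of the 28 Muc2-positive WT cells (15.9 to 52.4) and in 16.4% of the others. In het the shares were 19.0% of 79 and 18.0%, and in Bud 30.9% of 55 (19.1 to 44.8) and 21.7%. With at least 5 Muc2 UMIs, 4 of 4 WT cells, 3 of 7 het cells and 2 of 2 Bud cells held Lyz1, too few for a firm share. Conversely, many lysozyme-rich cells had no Muc2 UMI: 7 of 9 cells with 10 or more Lyz1 UMIs in WT, 4 of 7 in het and 7 of 14 in Bud. The shares were also taken with every cell thinned to 1000 UMIs. Of het cells that kept a Muc2 UMI, 41.2% of 17 (18.4 to 67.1) held Lyz1, against 4.19% of the others. In Bud the thinned shares were 35.7% of 14 (12.8 to 64.9) and 9.21%, and in WT 3 of 3 cells and 5.02%.

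In het 11.4% of Muc2-positive cells (5.34 to 20.5) and 1.10% of the others held Defa24, and 77.4% of its UMIs lay in the former. For Ang4 the shares were 6.33% (2.09 to 14.2) against 2.94% in het and 10.9% (4.11 to 22.2) against 6.46% in Bud, and the het interval overlapped that of Defa24. None of the 7 Ang4-positive WT cells held Muc2, and 35.9% of Ang4 UMIs in het and 28.0% in Bud lay in such cells. Of the Itln1 UMIs 83.9% in het and 72.2% in Bud lay in Muc2-positive cells. For Ccl9 the share was 28.6% of Muc2-positive WT cells (13.2 to 48.7) against 5.11% of the others, and 68.8% of its UMIs in WT, 74.7% in het and 30% in Bud lay in them. For Mmp7 it was 24.1% against 12.5% in het and 7.14% against 8.76% in WT. In Cys 4 of 6 Muc2-positive cells held Mmp7, 3 held Ccl9 and 1 held Lyz1. Muc2-positive cells were deeper than the others in WT and het (median 14961 against 12134.5 and 14414 against 9664 UMIs) and alike in Bud (11314 and 11456). Thinned to 1000 UMIs per cell, the Mmp7 shares were 47.1% against 4.19% in het and 7.14% against 4.93% in Bud. In WT 0 of 3 thinned Muc2-positive cells held Mmp7.

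**Figure D5:**
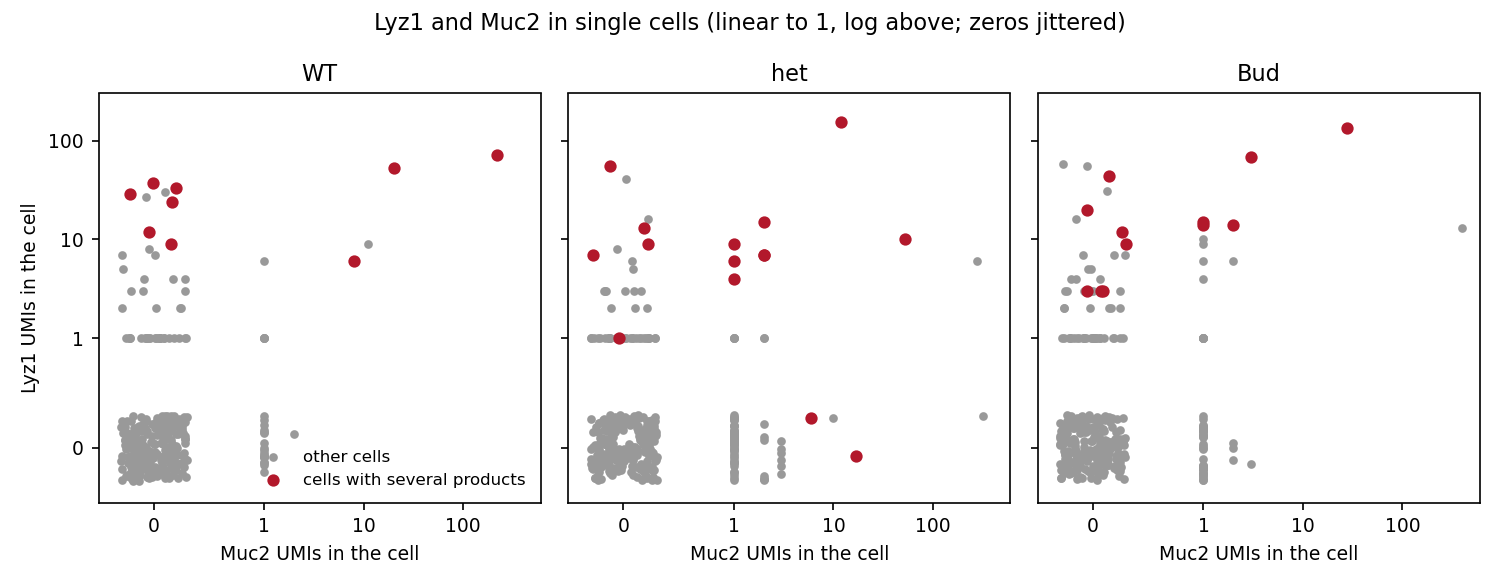
Muc2 (horizontal) and Lyz1 (vertical) UMIs of every kept cell in WT, het and Bud, both axes linear to 1 and logarithmic above, with zeros spread for display. Red points are the 9, 15 and 12 cells with several products; the cells with most Muc2 hold 71 Lyz1 UMIs in WT, 0 in het and 13 in Bud.

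The genes whose level per cell followed each product most closely were taken from 9308 genes detected in WT, het and Bud, as the mean of Pearson's r over the cells of the 3 libraries. The cells share library and depth, and the values are descriptions. For Lyz1 they were Spink4 (0.65), Fcgbp (0.61), Tff3 (0.60), Selm (0.49) and Rnase1 (0.49), of which the first, the second and the third stood on the goblet list. For Ccl9 they were Spink4 (0.55), Fcgbp, Lyz1, Tpsg1 and Muc2 (0.45), and for Guca2a its relative Guca2b (0.50), Fcgbp, Mmp7, Spink4 and Spdef (0.44). Mmp7 was followed by Tff3 (0.51), Guca2a, Selm, Spink4 and Ern2 (0.47). Itln1 was followed by Lyz1 (0.45), Spink4, Mmp7, Bhlha15 and Tff3 (0.35). Ang4 differed, with Reg4 (0.38), Clps (0.35), Tff3 (0.34), Neurog3 (0.32), the factor that starts enteroendocrine fate, and Cbfa2t3 (0.30). Its r with Clps was 0.03 in WT against 0.52 in het. With Neurog3 it was 0.08 in WT, 0.36 in het and 0.52 in Bud. Defa24 was too rare to enter.

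Other genes known from Paneth cells were called in both directions. Of 43 listed genes 13 were measured in het against WT, with 8 called higher and 1 lower, and 13 in Bud against WT, with 8 higher and 3 lower. Of 12 measured in Cys against WT 3 were higher and 6 lower, and of 13 in fetal against WT 5 were higher and 7 lower. Over all genes 8.43% were called higher and 8.83% lower in het, 5.79% and 8.67% in Bud, 17.6% and 22% in Cys, and 29.4% and 22.3% in fetal. The list's median log2 ratios were 0.33, 0.45, -0.33 and -0.38 for het, Bud, Cys and fetal, beside -0.02, -0.04, -0.06 and 0.06 over all genes. Pla2g2a, a secreted phospholipase that kills bacteria, was 74.1-fold higher in Bud than in WT (43.1 to 140, 239 against 3.22 CPM) and was found in 63.5% of Bud cells. Its richest Bud cell held 2.89% of its UMIs, and 14 Bud cells held 10 or more Lyz1 UMIs. Clps, a cofactor of pancreatic lipase, was 6.71-fold higher in Bud than in WT (5.14 to 8.88). Pnliprp2 was 3.73-fold lower in Bud than in WT (2.90 to 4.83), and Reg3a and Nupr1 were also called lower. Reg3g, an antibacterial lectin, was 5.44-fold higher in het than in WT (4.27 to 7.004) and had no UMI in Cys. Reg3b, its relative, was at least 202-fold higher in fetal than in WT. In fetal Pigr was 4157-fold lower than in WT (746 to 164259) and Pnliprp2 422-fold (75.1 to 16706), each from 1 fetal UMI. Rnase1 was 178-fold lower in Cys than in WT (31.4 to 7069, from 1 UMI). Lyz2, the lysozyme of macrophages, had no UMI in any library.

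Genes of Paneth cell fate and niche signalling were called at a share near that of all genes in het. Against WT, of 18 measured in het 2 were called higher and 2 lower, of 18 in Bud 5 and 1, of 18 in Cys 4 and 8, and of 19 in fetal 2 and 12. Of all genes, 8.43% and 8.83% were called so in het, 5.79% and 8.67% in Bud, 17.6% and 22% in Cys, and 29.4% and 22.3% in fetal. The list's medians were 0.01, 0.09, -0.11 and -0.87. In het the Wnt receptor Fzd5 was 2.53-fold higher (2.15 to 2.99) and the Notch ligand Dll1 2.52-fold (1.90 to 3.39). The 2 called lower in het were Wnt3 and Tgfa. In Bud Atoh1 was 1.68-fold higher (1.18 to 2.41) and the stress sensor of secretory cells Ern2 2.75-fold (1.86 to 4.14). In Cys the secretory genes Spdef and Ern2 were 17.3-fold (11.3 to 27.8) and 13.6-fold higher (9.72 to 19.6) than in WT. The 8 called lower in Cys included Atoh1, Bhlha15, Dll1 and the receptor gene Kit, which was 52.3-fold lower (17.5 to 257). The Wnt ligand Wnt3 was 101-fold lower in Cys than in Bud (17.6 to 4029, from 1 UMI).

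Genes of the guanylin pathway had median log2 ratios against WT of 0.49 in het, -0.18 in Bud, -1.30 in Cys and -1.96 in fetal. All 6 measured genes were called lower in fetal, where 22.3% of all genes were. In Cys 5 of 6 measured members were called lower than in WT and Cftr, the chloride channel that it opens, was 3.71-fold higher (3.29 to 4.202), where 22% of all genes were called lower and 17.6% higher. In het 2 of 6, Guca2a and Guca2b, were higher and 0 lower, where 8.43% of all genes were called higher and 8.83% lower. Guca2a is itself among the products, so its call was counted above as well. In Bud Cftr was higher and Slc26a3 lower, where 5.79% of all genes were called higher and 8.67% lower. The kinase gene Prkg2 had no UMI in Cys, at least 103-fold below WT, and Gucy2c none in fetal, at least 216-fold below WT.

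Summed markers of other cells also differed between the libraries, not always in the products' direction. Goblet list genes, Guca2a and Ccl9 included, summed to 146 CPM in fetal, 1638 in WT, 2651 in het, 2379.5 in Bud and 1692 in Cys, and Retnlb and Fer1l6 were at 0 throughout. In het 8 of 16 measured goblet genes were called higher than in WT and 3 lower, in Bud 7 and 2, in Cys 5 and 10, and in fetal 0 and 14, with medians of 0.40, 0.32, -0.61 and -1.41. The shares of all genes called higher and lower were 8.43% and 8.83%, 5.79% and 8.67%, 17.6% and 22%, and 29.4% and 22.3%. Cys thus kept a summed goblet level near that of WT while Fcgbp was 24.2-fold lower (19.5 to 30.2) and Agr2 6.73-fold higher (6.07 to 7.48). Enterocyte genes summed to 123, 4056, 7480.2, 1593 and 258 CPM in fetal, WT, het, Bud and Cys, enteroendocrine genes to 0.682, 288, 617, 201 and 1.61, and stem cell genes to 749.98, 2206, 1829, 2119 and 571. Tuft cell genes summed to 9.05 (Bud) to 138 CPM (het) and M cell genes to 167 (Cys) to 1083 (fetal). Immune genes summed to only 8.19 to 29.7 CPM and mesenchymal genes to 1.49 to 3.33, with Lyz2 and Adgre1 at 0 in every library. The part of these shifts in the results on the products was not tested.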

How the data were processed

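Dissociated organoid cells were sorted into plates, 1 plate a library, and sequenced by an adapted SORT-seq and CEL-Seq2 procedure, per the labels' protocols. The authors deposited, for each library, UMI counts and read counts, both raw whole numbers per gene and well, and a transcript table of estimated counts. The estimated counts equalled the deposited UMI counts corrected for collisions among 4096 identifiers. STAR 2.6.1, featureCounts 1.5.2 and Seurat 4.1.0 appear in the submitters' processing notes with the build GRCm38, without role or order. Neither strand nor multi-mapping settings were given in the sources used.

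Spike-ins were left out, wells with at least 1000 UMIs kept, and UMIs summed per library (python 3.11.15, numpy 2.4.6, pandas 2.3.3, scipy 1.17.1). Median depth per cell was 14637 (fetal), 12287.5 (WT), 11503 (het), 11385 (Bud) and 10414 UMIs (Cys). Ratios have exact conditional binomial, levels exact Poisson and shares Clopper-Pearson 95% intervals. These cover counting error only, and where a library had no UMI the fold is a bound against 3 UMIs in that library. The ratio step was checked on simulated counts drawn independently from library sums. These lack the clustering of UMIs in single cells, so the check does not cover it. No doublet caller was run, and no cells were clustered or given a type. Each group was 1 plate, so plate and group cannot be told apart. The genes and lists were chosen with earlier results of these data known. All 7 products and Muc2 are named, and of each list some of the 4 genes with the largest absolute log2 ratio per comparison among those reaching 20 CPM. Listed genes named for having few or no UMIs or only as called lower, and the richest cells, were picked after their values were seen. Genes of like pattern were the 5 with the highest mean r. Alternatives changed the well minimum, gene minimum, fold, scaling, cell weighting and left-out wells or cells.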

Additional observations from a re-analysis of the deposited data

Results flagged for a closer look

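Wells under 1000 UMIs entered no comparison, yet some products stood there at levels above those of the kept cells of the same library. In the left-out wells of WT, 8 wells held 11 Lyz1 UMIs, or 344 CPM of the wells' 31935 UMIs. Lyz1 stood at 629 CPM in the left-out wells of het (11 UMIs in 6 wells) and at 548 in those of Bud (18 in 7). Itln1 reached 1199.9 CPM in het (21 UMIs in 5 wells) and Ang4 395 in Bud (13 in 4). Defa24 and Ccl9 each had 4 UMIs in the left-out het wells, or 229 CPM, in 1 and 3 wells. All these counts are above the 3 that a count of 0 allows.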

How the results depend on the processing

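No paired analysis was possible because each group had 1 library. No alternative turned the direction of a called member. Lyz1 in het against WT, which was not called, was slightly lower in the main setting and higher with equal weight per cell. The number of members called moved by over 1.5 times in 2 comparisons. In Bud against WT it was 7 in place of 4 with equal weight per cell, where calls rest on the fold alone. In Bud against het it was 3 in place of 5 among wells of at least 3000 UMIs, without Lyz1 and Defa24, and 3 at a fold of 2, without Lyz1 and Mmp7. Scaling by medians of ratios moved the median of all genes by at most 0.06 (log2) and added Lyz1 in Bud against WT. Of 40 member log2 ratios, 8 stayed within the counting interval of the main value with equal weight per cell, 21 without the richest cell of each gene and 40 with the deposited transcript table. Cells with several products made up 3.97% (WT), 8.26% (het) and 8.49% (Bud) at 1 UMI or more of each product, and 1.32%, 1.71% and 1.26% at 5 or more. The cause of these differences was not tested. Depth of sampling limits the rest: at 3 counts, a count of 0 allows 0.809% (fetal) to 0.993% (WT) of cells with a UMI, and does not limit cells that express the gene.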
